A study of Mus musculus with 2 samples.

Results

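Apoe, Abca1, Abcg1 and Lpl are 4 of the 30905 genes listed in a single-cell RNA-seq study of immune cells from mouse colorectal tumours. They form a named list of cholesterol efflux and lipoprotein genes that was chosen by the Apoe levels of B cells in these same libraries, so the levels below are a description. The study set a fasting mimicking diet (FMD) against ad libitum feeding. Both groups were male C57BL/6 mice given azoxymethane (AOM, a carcinogen) at 12 mg/kg and then 3 cycles of 2.5% dextran sodium sulfate (DSS), a compound that damages the gut lining, for 7 days followed by water for 14 days. The FMD library came from 4 such mice fed the FMD from cycle 2, and the ad libitum library from 4 such mice fed freely from the same cycle. The animals of each library were pooled before sequencing, so there was 1 library per diet, and every difference between diets below is a difference between 2 pooled libraries with no replicate check and no test. CD45+ cells (leukocytes) were sorted; the samples are named tumour tissue, while the extraction text also mentions location-matched normal colon.

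Apolipoprotein E, encoded by Apoe, is a secreted lipid carrier that cells take up through lipoprotein receptors. It is known as a product of hepatocytes, macrophages and astrocytes. ABCA1 is a membrane transporter that passes cholesterol and phospholipid to lipid-poor apolipoproteins, apolipoprotein E among them, and ABCG1 passes cholesterol to particles that already carry lipid. Sterol-sensing nuclear receptors, LXRα (gene Nr1h3) and LXRβ (gene Nr1h2), pair with RXR and switch on Abca1, Abcg1, Lpl and, in macrophages, Apoe. Lipoprotein lipase, encoded by Lpl, hydrolyses the triglyceride of lipoproteins and is made by fat, muscle and macrophages. In lymphocytes, cholesterol export through LXR and ABCG1 is known to restrain proliferation.

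Apoe lies on the minus strand of chromosome 7 at 19696109 to 19699188 and Abca1 on the minus strand of chromosome 4 at 53030787 to 53159895, both in the GRCm38 build of the files. Abcg1 lies on the plus strand of chromosome 17 at 31057675 to 31117988, where it overlaps the small RNA gene Gm25447, and Lpl on the plus strand of chromosome 8 at 68880491 to 68907448. RefSeq promoters (GRCm38.p6, from 250 bases before to 50 bases after the annotated start) were available for Abca1, with 1 start, and for Apoe, with 3 starts. The Abca1 promoter and that of the most upstream Apoe start are shown because both genes are LXR targets and only the first holds an LXR element here. Capitals mark every match to the letters searched, which were the LXR elements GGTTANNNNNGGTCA and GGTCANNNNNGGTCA, the TATA box TATAAA, the E-box CACGTG and the GC box GGGCGG, on both strands.
Abca1, chr4:53159846-53160145, minus strand: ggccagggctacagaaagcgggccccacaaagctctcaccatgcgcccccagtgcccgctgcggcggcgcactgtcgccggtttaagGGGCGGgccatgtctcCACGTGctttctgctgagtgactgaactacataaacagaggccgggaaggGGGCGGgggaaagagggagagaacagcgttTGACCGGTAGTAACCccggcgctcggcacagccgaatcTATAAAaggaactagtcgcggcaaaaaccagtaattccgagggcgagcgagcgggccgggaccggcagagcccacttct
Apoe, chr7:19699139-19699438, minus strand: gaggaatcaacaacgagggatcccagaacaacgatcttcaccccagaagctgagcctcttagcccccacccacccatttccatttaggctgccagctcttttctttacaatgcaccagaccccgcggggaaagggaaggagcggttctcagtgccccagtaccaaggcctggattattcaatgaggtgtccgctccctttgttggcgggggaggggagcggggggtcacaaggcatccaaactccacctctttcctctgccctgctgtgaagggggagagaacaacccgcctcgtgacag
In Abca1 the LXR element lies 67 bases before the start and is read on the opposite strand. Its TATA box lies 29 bases before the start, its E-box 147 bases before it, and its GC boxes 163 and 97 bases before it. The upstream Apoe promoter held none of these letters, and of its other starts 1 held 2 matches of TATAAA and 1 held none. Either form of the LXR element was present in 41 of 32851 mouse promoters of the same length (0.125%), against 13.6% for TATAAA, 7.15% for CACGTG and 35.7% for GGGCGG. Among the other LXR genes with a promoter entry, Srebf1, which encodes a regulator of fatty acid synthesis, held an LXR element in 1 of its 3 promoters. A match is a description of the letters and not evidence of binding.

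The FMD library held 5877 barcodes with 35280790 UMIs (unique molecular identifiers, 1 per captured transcript molecule), and the ad libitum library 6089 barcodes with 35712762 UMIs. After filtering, 4614 FMD cells and 4862 ad libitum cells were kept, with a median of 5739 and 5504 UMIs per cell, and Ptprc, the gene of the sorted marker CD45, was seen in 93.5% and 92.0% of them. The libraries shared 7 barcodes, 4 of them among kept cells. Cells were clustered without the 4 genes, and clusters were given the name of the marker list they raised most, with "-like" added; these names are rebuilt and may differ from those of the study. Levels are given as CPM, UMIs per 1000000 UMIs outside immunoglobulin and mitochondrial genes, with 95% exact Poisson intervals. B cells of 5 states (follicular, Egr-high, heat shock-high, interferon-high, and memory or B-1) made up 58.5% of FMD cells and 62.1% of ad libitum cells. Each B cluster took the name of the state list with the highest mean log2 ratio to the other B clusters, raised or not. The state called follicular B-like (35.7% and 32.8%) got its name in this way. Its summed follicular markers (3242 and 3402 CPM) were lower than those of the heat shock-high (5130 and 4940 CPM), Egr-high (3832 and 3846 CPM) and interferon-high (3576 and 3692 CPM) states. The markers of memory and B-1 cells, 8 genes, summed to 635 CPM in FMD and 674 CPM in ad libitum memory or B-1 B-like cells, against 215 and 190 CPM in follicular B-like cells. The markers of germinal centre cells summed to 2402 and 1897 CPM in germinal centre B-like cells, against 11.4 and 11.2 CPM in follicular B-like cells. T cell markers summed to 462 and 879 CPM in germinal centre B-like cells, against 17.5 and 17.7 CPM in follicular B-like cells and 4541 and 4759 CPM in T-like cells, and their part in the germinal centre values was not tested. Memory or B-1 B-like cells were 3.27% and 4.30% of kept cells, plasma-like cells 0.694% and 1.91%, and macrophage or monocyte-like cells 1.24% and 0.535%. Intervals and limits cover counting error only, since amplified reads were collapsed to UMIs but mice and cells within a library are not independent samplings of a diet.

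Most Apoe UMIs of kept cells lay in the B lineage in both libraries, which held 2817 of 4614 FMD cells and 3185 of 4862 ad libitum cells. Of 15628 Apoe UMIs in the FMD library and 14743 in the ad libitum library, 88.2% and 96.2% lay in B lineage cells, against 8.16% and 1.41% in named myeloid cells and 2.10% and 1.21% in T, NK and innate lymphoid cells. The myeloid shares leave out cells removed as doublets that otherwise grouped with macrophages. Those were 16 FMD cells with 291 Apoe UMIs and 6 ad libitum cells with 980. The largest share lay in follicular B-like cells, with 42.8% and 40.2% of the library's Apoe UMIs. Memory or B-1 B-like cells held 13.5% and 26.2% of them, although they were under 5% of the cells in each library. A gap between classes in such pooled sums can come from more cells of a type or from more RNA per cell, so levels per class and UMIs per cell follow.

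Within the B lineage Apoe differed by state in the same order of 3 tiers in both libraries. Memory or B-1 B-like cells, named from markers of antigen-experienced and innate-like B cells, averaged 1691 CPM (1620 to 1765) over 151 cells in the FMD library and 2389 CPM (2314 to 2466) over 209 cells in the ad libitum library. Germinal centre B-like cells, the dividing cells of the B cell response, averaged 1225 CPM (1168 to 1284) over 86 FMD cells and 1281 CPM (1210 to 1355) over 73 ad libitum cells. These 2 classes stood highest among the B states in each library, and their intervals overlapped with those of no other B state. Follicular B-like cells averaged 783 CPM (765 to 802) over 1647 FMD cells and 756 CPM (737 to 775) over 1596 ad libitum cells. Interferon-high B-like cells averaged 794 CPM (728 to 865) and 774 CPM (679 to 879), and did not differ from follicular B-like cells beyond counting error. Below them, cells with high immediate-early genes (Egr-high B-like) averaged 341 CPM (319 to 364) in the FMD library and 449 CPM (427 to 472) in the ad libitum library. Cells with high heat shock genes averaged 382 CPM (348 to 419) in the FMD library and 447 CPM (420 to 475) in the ad libitum library; the intervals of these 2 low states overlapped in both libraries.

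**Figure D1:**
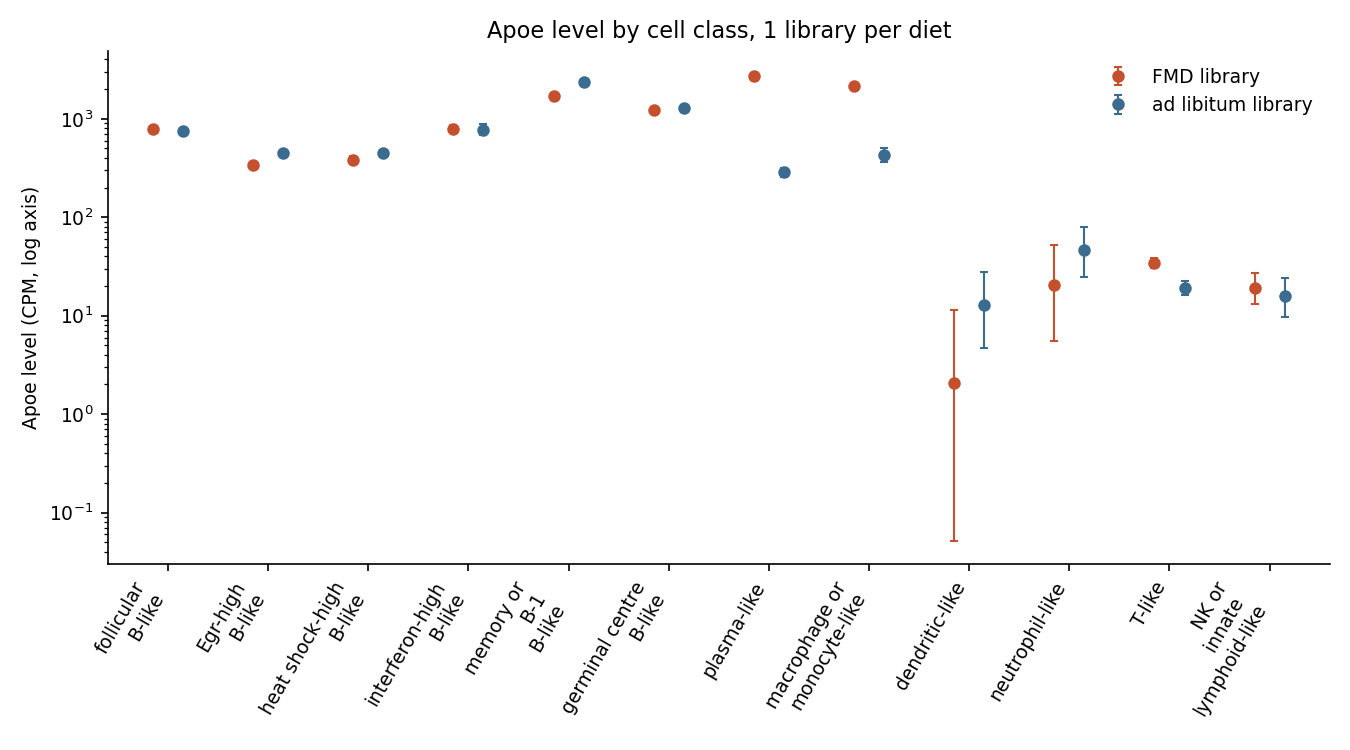
Apoe level (CPM, log axis) in each cell class, with the FMD library (orange, left of each pair) and the ad libitum library (blue, right), and 95% exact Poisson intervals as bars. Memory or B-1 B-like cells at 1691 and 2389 CPM stand above follicular B-like cells at 783 and 756 CPM, and the libraries are far apart in plasma-like and macrophage or monocyte-like cells.

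Set against follicular B-like cells of the same library, Apoe was 2.16-fold higher in FMD memory or B-1 B-like cells (log2 ratio 1.11, interval 1.04 to 1.18) and 3.16-fold higher in the ad libitum ones (1.66, 1.60 to 1.72). The log2 ratio of germinal centre B-like cells was 0.65 (0.57 to 0.72) in the FMD library and 0.76 (0.67 to 0.85) in the ad libitum library. Egr-high B-like cells stood at -1.20 (-1.30 to -1.10) and -0.75 (-0.83 to -0.67), and heat shock-high B-like cells at -1.04 (-1.17 to -0.90) and -0.76 (-0.85 to -0.66). All 4 directions were the same in each of 8 other ways of processing, in both libraries, while the sizes moved. Under other clusterings the cells given each name changed too. The 3 clusters inside the follicular class ranged from 676 to 871 CPM in the FMD library and from 600 to 852 CPM in the ad libitum library, and their order was not the same in the libraries.

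Most B cells carried Apoe at a few UMIs rather than a small set carrying all of it. The median follicular B-like cell held 2 Apoe UMIs in the FMD library (quartiles 0 and 6, highest cell 53) and 1 in the ad libitum library (quartiles 0 and 5, highest cell 76). The median memory or B-1 B-like cell held 9 UMIs in the FMD library (quartiles 2 and 19, highest 99) and 16 in the ad libitum library (quartiles 6 and 26, highest 109). At least 1 Apoe UMI was seen in 65.9% of FMD and 61.7% of ad libitum follicular B-like cells, whose median depths were 5226 and 4950.5 UMIs, and in 88.7% and 94.3% of memory or B-1 B-like cells, at 7438 and 7453 UMIs. Since deeper cells show more genes, each cell was thinned to 1000 UMIs. The share was then 57.6% of FMD memory or B-1 B-like cells (exact binomial interval 49.3 to 65.6) and 73.7% of the ad libitum ones (67.2 to 79.5). Follicular B-like cells stood at 38.6% (36.2 to 41.0) in the FMD library and 34.4% (32.1 to 36.8) in the ad libitum library. In T-like cells, which should lack the gene, it was 1.19% and 1.32%. The share with at least 3 Apoe UMIs after thinning separated the classes too, at 23.8% and 38.8% of memory or B-1 B-like cells, 8.22% and 8.67% of follicular B-like cells and 0.256% and 0% of T-like cells.

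**Figure D2:**
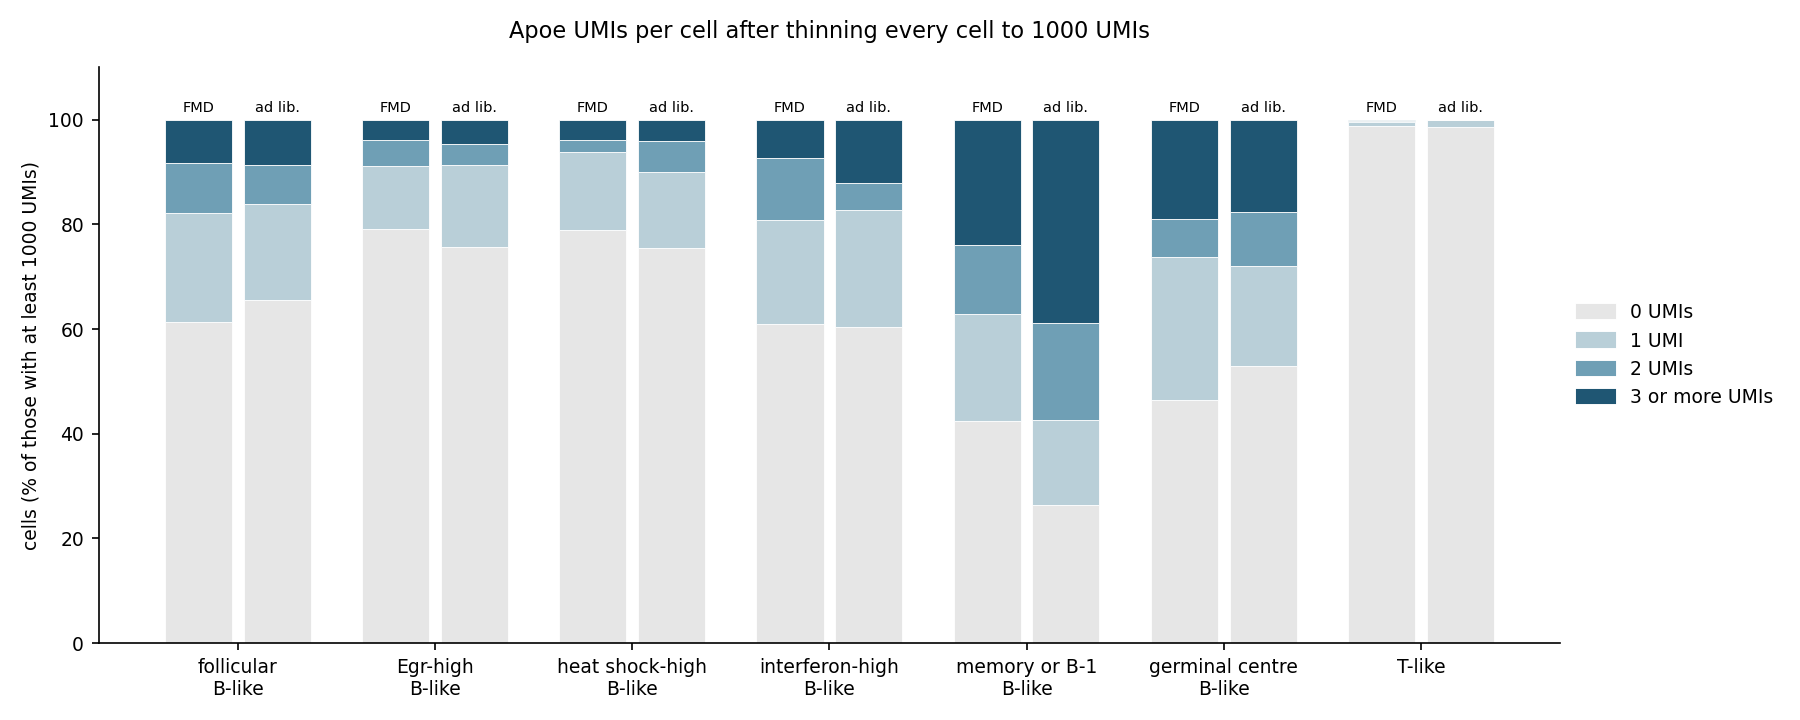
Share of cells (%) with 0, 1, 2 or at least 3 Apoe UMIs after every cell was thinned to 1000 UMIs, by class, with the FMD library as the left bar and the ad libitum library as the right bar of each pair. The darkest band, at least 3 UMIs, covers 23.8% and 38.8% of memory or B-1 B-like cells and at most 0.256% of T-like cells.

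Free RNA in the droplets was not measured directly, so marker levels of kept cells were set beside these levels. The part of Apoe RNA freed from B cells in the levels of the B states was not tested. Had all Apoe in follicular B-like cells come with macrophage RNA, in the ratio to 5 macrophage markers seen in macrophage or monocyte-like cells, it would have stood at 0.566 CPM in the FMD library and 0.169 CPM in the ad libitum library. This ratio was taken from kept cells, with 157 Apoe UMIs in the ad libitum library. The 6 ad libitum cells removed as doublets and otherwise grouped with macrophages held 980, and a ratio with them was not tested. The 5 markers themselves stood at 1.76 and 1.53 CPM in follicular B-like cells, against 6624 and 3893 CPM in macrophage or monocyte-like cells. Memory or B-1 B-like cells held 0 and 3 UMIs of them in all. Conversely, Apoe in T-like cells was 4.37% and 2.52% of the follicular level, beside 2.14% and 1.10% for Cd79a and 3.37% and 2.32% for Cd79b, which encode the B cell receptor's signalling chains, and 2.53% and 0.788% for Ms4a1, which encodes CD20. Apoe of T-like cells was thus above the share of each of these B cell genes in both libraries. The 5 highest T-like cells held 58.6% of the FMD and 31.8% of the ad libitum Apoe UMIs of the class, with up to 69 and 26 in a cell, and the part of free RNA and of mixed droplets in these values was not tested.

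The genes next to Apoe in its apolipoprotein cluster did not share this pattern. Apoc1, which encodes an inhibitor of lipoprotein uptake, had 0 UMIs in follicular B-like cells of either library and 3 and 0 UMIs in B lineage cells as a whole. Apoc2, which encodes the activator of lipoprotein lipase, had 0 and 2 UMIs in B lineage cells, and Apoc4 had 2 and 4. In macrophage or monocyte-like cells Apoc1 had 8 and 2 UMIs, and Apoc2 had 5 and 3. None of the 9 other apolipoproteins reached 100 UMIs in B lineage or myeloid cells.

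The heavy chain transcripts of a cell give its antibody class, and Apoe was followed across them. In memory or B-1 B-like cells, those with mostly IgA transcripts averaged 2704 CPM (2451 to 2976) over 17 FMD cells and 3223 CPM (2993 to 3465) over 34 ad libitum cells, and each of these cells held an Apoe UMI. Those with mostly IgG averaged 1944 CPM (1772 to 2128) over 27 FMD cells and 2488 CPM (2334 to 2649) over 47 ad libitum cells. Those with mostly IgM averaged 1498 CPM (1410 to 1590) over 89 FMD cells and 2129 CPM (2028 to 2233) over 95 ad libitum cells. The order of IgA, IgG and IgM was the same in both libraries, with no overlap of these counting intervals within a library. When 0.9 of the heavy chain UMIs had to come from 1 class, IgA and IgG cells stood at 2624 and 1862 CPM in the FMD library and at 2990 CPM (2658 to 3352) and 2944 CPM (2651 to 3261) in the ad libitum library, so the step between IgA and IgG was not seen there. In germinal centre B-like cells it was IgM cells that stood higher, at 1682 CPM (1591 to 1777) over 46 FMD cells and 1491 CPM (1377 to 1611) over 29 ad libitum cells. Germinal centre B-like cells with IgG averaged 699 CPM (626 to 778) over 29 FMD cells and 1288 CPM (1151 to 1438) over 18 ad libitum cells, where the intervals of IgM and IgG overlapped. At the share of 0.9, IgM cells of the ad libitum germinal centre class stood at 1571 CPM (1370 to 1793) over 10 cells and IgG cells at 847 CPM (682 to 1040) over 8 cells, with no overlap. These IgM cells held 219 Apoe UMIs, 50 in the highest cell, and these IgG cells 91, 55 in the highest cell. The intervals leave out this spread between few cells. Follicular B-like cells with IgM stood at 760 CPM over 1330 FMD cells and 765 CPM over 1128 ad libitum cells. Follicular B-like cells with IgG were few, at 4040 CPM (3304 to 4891) over 5 FMD cells and 1335 CPM (879 to 1942) over 5 ad libitum cells. Those with IgA stood at 1150 CPM (643 to 1896) over 3 FMD cells and 787 CPM (613 to 994) over 18 ad libitum cells.

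Plasma-like cells, the antibody-secreting end state, split by heavy chain. The 23 FMD plasma-like cells with IgA held 5 Apoe UMIs in all, 12.2 CPM (3.95 to 28.4), and the 85 ad libitum ones held 30 UMIs, 25.5 CPM (17.2 to 36.4). No IgA plasma-like cell held more than 1 Apoe UMI in the FMD library or more than 6 in the ad libitum library, at median depths of 16633 and 13572 UMIs outside immunoglobulin and mitochondrial genes. The ad libitum library held 1 IgA cell with few UMIs that reached 4847 CPM on 6 Apoe UMIs. The summed level in IgA plasma-like cells was thus far below that in IgA memory or B-1 B-like cells. The 9 FMD plasma-like cells without IgA held 1406 Apoe UMIs (12614 CPM), and the 8 ad libitum ones held 344 (2547 CPM). Nearly all of it sat in a few IgG cells. In the FMD library, cells with mostly Ighg2b held 494 and 347 Apoe UMIs and cells with mostly Ighg3 held 348 and 163, with 1 IgM cell at 53, 1 Ighg3 cell at 1 and the other 3 at 0. In the ad libitum library, an Ighg2c cell held 233, an Ighg2b cell 110, an Ighg1 cell 1, and the other 5 held 0. The 4 highest FMD cells held no C1q, Csf1r, Lyz2 or Cd3 UMIs, while of the 2 highest ad libitum cells the one with 110 Apoe UMIs held 4 Cd3 UMIs. Genes of the B panel had 219, 71, 118 and 75 UMIs in these FMD cells, by falling Apoe. They had 151 and 80 in these ad libitum cells, and 4 to 109 in the other cells without IgA. A plasma-like cell mixed with a B cell would not meet the doublet rule, and such mixing was not tested. The ad libitum cell with 233 had only 35 heavy chain UMIs, so its class is less sure. This split was drawn after the plasma-like values had been seen.

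**Figure D3:**
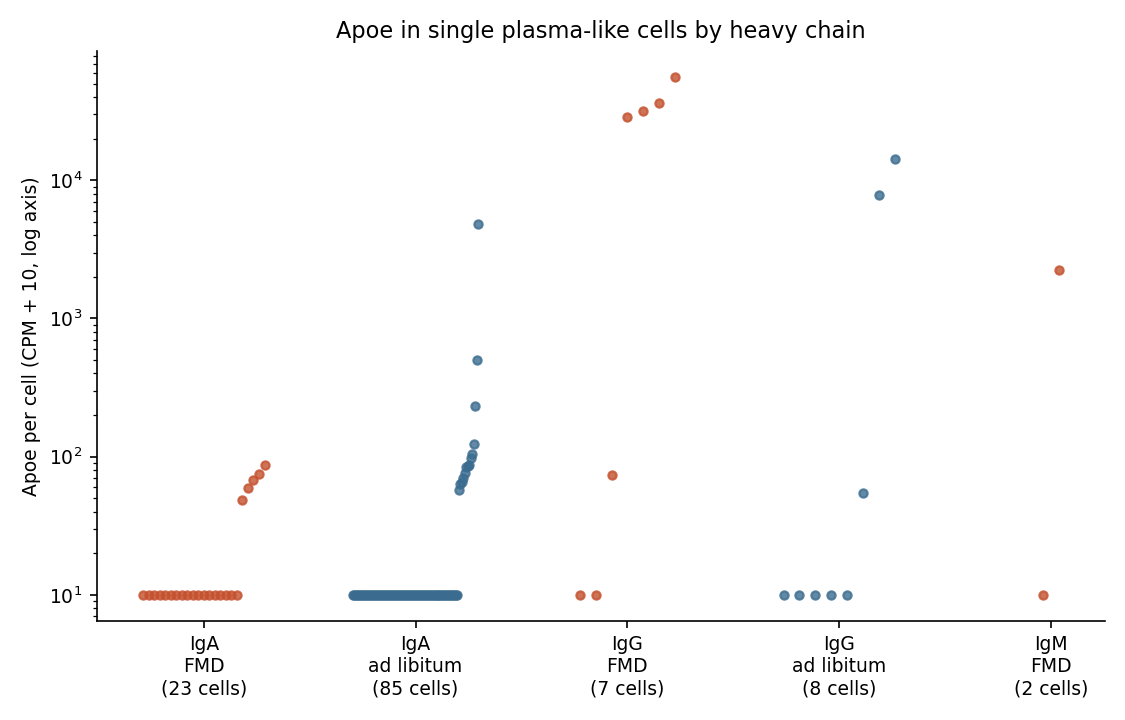
Apoe in single plasma-like cells (CPM + 10, log axis), by the heavy chain that most of their heavy chain UMIs come from, with the FMD library (orange) left of the ad libitum library (blue). Most IgA cells lie near the bottom, with 1 shallow ad libitum IgA cell at 4847 CPM (6 UMIs), while 4 FMD and 2 ad libitum IgG cells stand above all other cells.

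Over all plasma-like cells Apoe averaged 2700 CPM (2561 to 2844) over 32 FMD cells and 285 CPM (257 to 316) over 93 ad libitum cells, a log2 ratio of 3.24 (3.08 to 3.41). The median cell held 0 Apoe UMIs in both libraries, and the 5 highest cells held 99.6% and 95.7% of the UMIs. Without the highest cell of each library the ratio was 4.03. Cells with IgA were 23 of 32 in the FMD library and 85 of 93 in the ad libitum library. Within heavy chains the log2 ratio was -1.07 in IgA cells, on 5 and 30 UMIs, and 2.31 in the others. The level intervals of the IgA cells, 3.95 to 28.4 and 17.2 to 36.4 CPM, overlapped. Of the 4 genes Apoe alone reached 100 UMIs in plasma-like cells and was at least 2-fold apart, beside 1.68% of the 2626 genes tested there. The ratio rests on 4 FMD cells and 2 ad libitum cells.

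Macrophage or monocyte-like cells averaged 2131 CPM of Apoe (2014 to 2254) over 57 FMD cells and 430 CPM (365 to 503) over 26 ad libitum cells, a 4.96-fold higher level in the FMD library (log2 ratio 2.31, 2.07 to 2.56). The median FMD cell held 8 Apoe UMIs (quartiles 3 and 19, highest 225), and the median ad libitum cell 1.5 (quartiles 0 and 5.75, highest 35). This direction depended on which cells were called doublets, barcodes that hold more than 1 cell. Removed for transcripts of another lineage, and grouped with macrophages when no doublets were removed, were 16 FMD cells with 291 Apoe UMIs (0 to 73, median 14.5) and 6 ad libitum cells with 980 (21 to 286, median 183). Without doublet removal the regrouped class averaged 1606 CPM over 76 FMD cells and 2435 CPM over 33 ad libitum cells, a log2 ratio of -0.60. Regrouping kept 57 and 25 of the cells in it before, and the remaining few were kept cells from elsewhere. The sign of the difference in macrophages was therefore not settled by these libraries.

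The macrophage or monocyte-like class also differed in composition between libraries. All 12 of its markers were detected in both, with a summed level of 9743 CPM in the FMD library and 5115 CPM in the ad libitum library. Complement C1q transcripts, which mark tissue macrophages, summed to 583 UMIs (1007 CPM) in the FMD library and 30 UMIs (82.1 CPM) in the ad libitum library. Cells with a C1q UMI numbered 16 and 3 and averaged 5228 and 402 CPM of Apoe, and cells without one numbered 41 and 23 and averaged 1084 and 432 CPM. Epithelial markers summed to 3 and 516 UMIs, and without the cells that held them Apoe averaged 2086 CPM over 54 FMD cells and 487 CPM over 24 ad libitum cells. The removed ad libitum cells held 416 C1q UMIs and the removed FMD cells 33. The part of these differences in the Apoe values was not tested. Of the 3 genes that reached 100 UMIs in the class, Apoe alone was at least 2-fold apart; 8.72% of the 1491 genes tested in the class were so, 3.89% in the direction of a higher level in the FMD library.

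Apoe was low in the other classes with at least 20 cells per library. Dendritic-like cells had 1 UMI over 35 FMD cells and 6 UMIs over 36 ad libitum cells, neutrophil-like cells had 4 and 13 UMIs, and NK or innate lymphoid-like cells averaged 19.3 and 15.8 CPM. T-like cells averaged 34.3 CPM (30.5 to 38.4) in the FMD library and 19.1 CPM (16.2 to 22.3) in the ad libitum library, and 1 cluster of them, led by Tnfsf8 and Izumo1r, stood at 113 and 45.0 CPM. Without that cluster the log2 ratio of T-like cells was 0.40 in place of 0.85. Apoe in macrophage or monocyte-like cells of either library was thus above that in the other myeloid classes with 20 cells or more.

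Abca1 had another distribution, with its highest levels in myeloid cells and its lowest B lineage level in the germinal centre. Macrophage or monocyte-like cells averaged 233 CPM of Abca1 (195 to 276; 135 UMIs) in the FMD library and 175 CPM (135 to 224; 64 UMIs) in the ad libitum library. Neutrophil-like cells averaged 235 CPM (172 to 313; 46 UMIs) and 179 CPM (133 to 236; 50 UMIs), and did not differ from macrophages beyond counting error. Follicular B-like cells averaged 53.6 CPM of Abca1 (48.8 to 58.7) and 51.3 CPM (46.4 to 56.6). Against them the log2 ratio of macrophages was 2.12 in the FMD library and 1.77 in the ad libitum library. The other B states outside the germinal centre lay between -0.27 and 0.25 of follicular B-like cells on the log2 scale. Germinal centre B-like cells had 12 Abca1 UMIs (8.60 CPM) in the FMD library and 8 (8.40 CPM) in the ad libitum library, 6.23-fold and 6.11-fold lower than follicular B-like cells (log2 ratio -2.64, -3.60 to -1.82, and -2.61, -3.83 to -1.62). The direction of this difference was the same in all 8 other ways of processing, in both libraries. Germinal centre B-like cells thus combined an Apoe level above the follicular one with an Abca1 level below it. T-like cells averaged 4.61 and 5.34 CPM of Abca1, and dendritic-like cells 4.10 and 4.25 CPM.

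**Figure D4:**
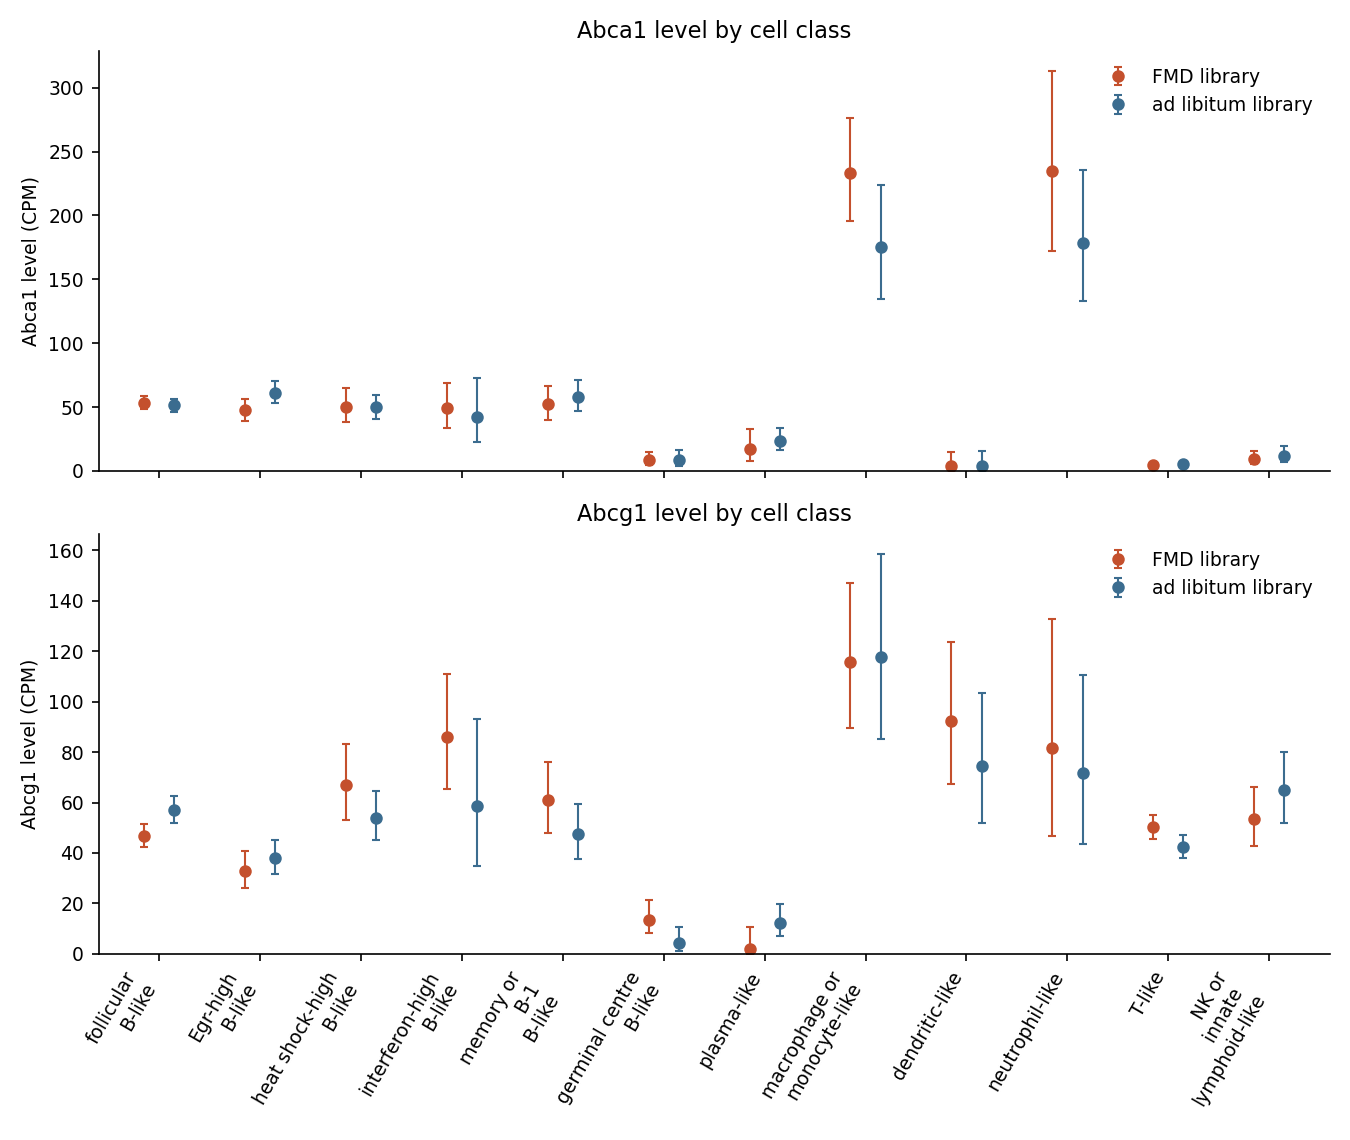
Levels of Abca1 and of Abcg1 (CPM, linear axes from 0) by cell class, with the FMD library (orange) left of the ad libitum library (blue) in each pair and 95% exact Poisson intervals. Abca1 stands highest in macrophage or monocyte-like and neutrophil-like cells, and both genes are low in germinal centre B-like cells.

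Abcg1 was spread more evenly, and NK or innate lymphoid-like cells did not differ from follicular B-like cells beyond counting error. T-like cells did not either in the FMD library (log2 ratio 0.10, -0.09 to 0.30). In the ad libitum library T-like cells stood lower than follicular B-like cells (-0.42, -0.63 to -0.22). Follicular B-like cells averaged 46.8 CPM of Abcg1 (399 UMIs) in the FMD library and 57.1 CPM (448 UMIs) in the ad libitum library. T-like cells averaged 50.3 CPM (436 UMIs) and 42.5 CPM (350 UMIs), with 136 and 69 of these UMIs in a cluster led by Foxp3, the regulator of regulatory T cells. NK or innate lymphoid-like cells averaged 53.5 and 64.9 CPM. Macrophage or monocyte-like cells averaged 116 and 118 CPM of Abcg1, dendritic-like cells 92.3 and 74.4 CPM and neutrophil-like cells 81.7 and 71.5 CPM. Among the B states the interferon-high one reached 86.0 CPM (58 UMIs) in the FMD library and 58.8 CPM (18 UMIs) in the ad libitum library. Egr-high B-like cells averaged 32.7 and 38.1 CPM of Abcg1, with log2 ratios to follicular B-like cells of -0.51 and -0.58. Germinal centre B-like cells had 19 Abcg1 UMIs (13.6 CPM) in the FMD library and 4 (4.20 CPM) in the ad libitum library, with log2 ratios to follicular B-like cells of -1.78 and -3.76. Plasma-like cells had 1 and 16 UMIs. Both transporters were thus lower in germinal centre B-like cells than in follicular B-like cells in each library.

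Lpl was barely detected. The FMD library had 11 Lpl UMIs in 5 cells, of which 8 lay in 2 macrophage or monocyte-like cells with 6 and 2 UMIs (13.8 CPM, 5.97 to 27.2), 2 in follicular B-like cells and 1 in a T-like cell. The ad libitum library had 0, which allows up to 8.21 CPM in its macrophage or monocyte-like cells and up to 0.382 CPM in its follicular B-like cells. A difference in Lpl between libraries was not detectable at this depth.

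Between the diets, no B state had any of the 4 genes at least 2-fold apart among those that reached 100 UMIs. Over the 5 B states together 0 of the 3 genes that reached 100 UMIs were so, beside 0.138% of the 8715 genes tested; in follicular B-like cells it was 0 of 3 beside 0.104%, in Egr-high B-like cells 0 of 3 beside 0.171%, in heat shock-high B-like cells 0 of 3 beside 0.223%, and in memory or B-1 B-like cells 0 of 3 beside 0.326%. In interferon-high and germinal centre B-like cells Apoe alone reached 100 UMIs, and it was not 2-fold apart, beside 0.368% and 1.71% of the genes tested. The largest B state difference in Apoe was a lower level in FMD memory or B-1 B-like cells, with a log2 ratio of FMD over ad libitum of -0.50 (-0.58 to -0.42). Egr-high B-like cells followed at -0.40 (-0.52 to -0.28) and heat shock-high B-like cells at -0.23 (-0.39 to -0.07). Follicular B-like cells stood at 0.05 (0.00 to 0.10), interferon-high ones at 0.04 (-0.19 to 0.26) and germinal centre ones at -0.06 (-0.17 to 0.04). The differences in memory or B-1 B-like and Egr-high B-like cells had the same sign in all 9 alternatives, between -0.63 and -0.33 and between -0.49 and -0.14. Those in follicular and heat shock-high B-like cells changed sign at other clustering resolutions. The memory or B-1 B-like class grew from 151 and 209 cells to 891 and 761 at resolution 2. At 10% mitochondrial UMIs it held 410 and 376 cells, so these alternatives take in other cells under the same name. In memory or B-1 B-like cells each antibody class had the lower value in the FMD library, as given above for IgA, IgG and IgM cells.

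**Figure D5:**
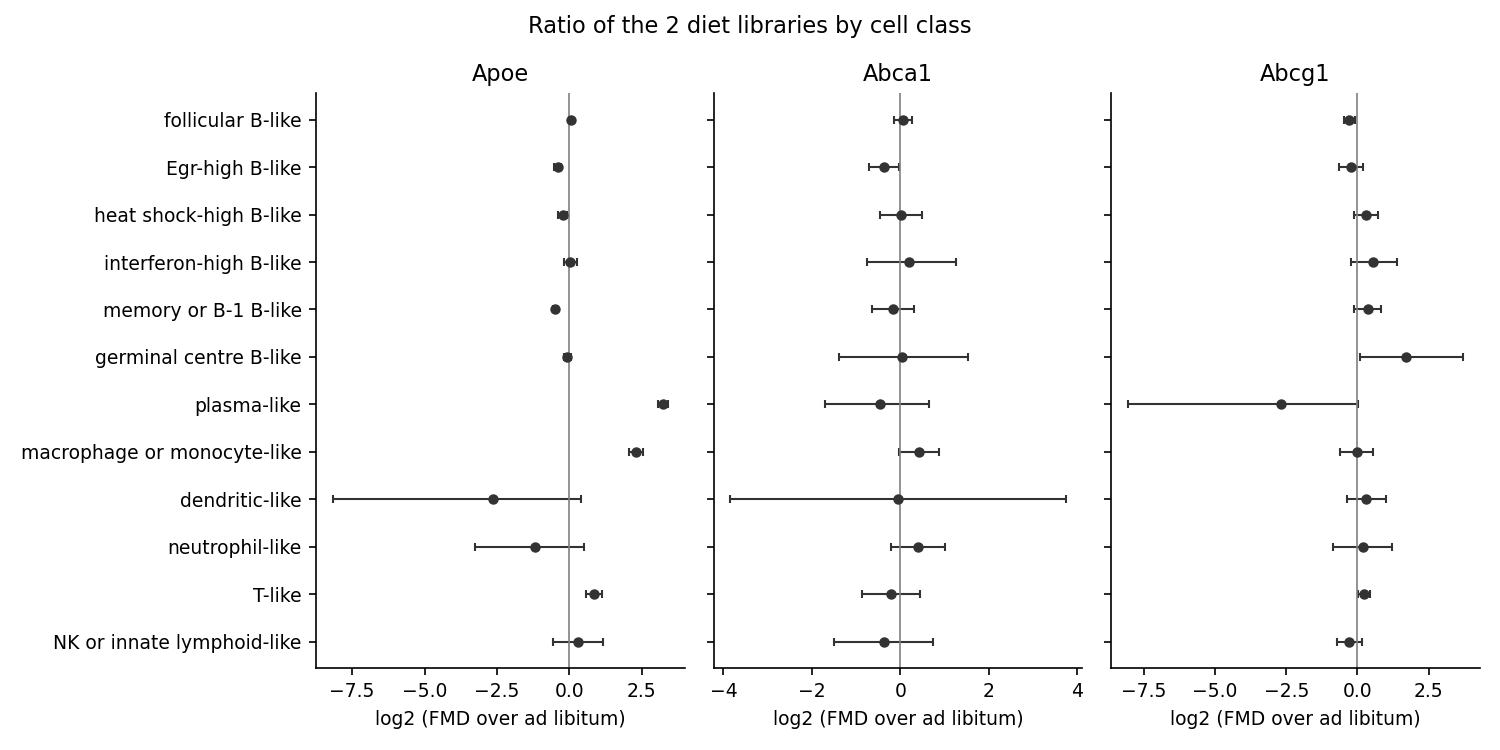
Log2 ratio of the FMD library over the ad libitum library for Apoe, Abca1 and Abcg1 in each cell class, with 95% conditional binomial intervals that cover counting error only and a line at 0. In the B states all points lie within 2-fold of 0 except Abcg1 in germinal centre B-like cells (19 and 4 UMIs), while Apoe in plasma-like and macrophage or monocyte-like cells stands at 3.24 and 2.31.

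Abca1 over the 5 B states stood at a log2 ratio of -0.05 (-0.20 to 0.09) and Abcg1 at -0.07 (-0.22 to 0.08). By state, Abca1 had an interval that left out 0 only in Egr-high B-like cells, at 47.3 CPM in the FMD library and 61.2 CPM in the ad libitum library (-0.37, -0.71 to -0.04), and this turned to 0.19 when cells were thinned. Abcg1 was lower in FMD follicular B-like cells (-0.29, -0.49 to -0.09) and higher in FMD T-like cells (0.24, 0.04 to 0.45), both below 2-fold. In T-like cells 0 of the 2 genes that reached 100 UMIs, Apoe and Abcg1, were 2-fold apart, beside 0.551% of the 8353 genes tested. In germinal centre B-like cells the Abcg1 ratio was 1.70 (0.11 to 3.71) on 19 and 4 UMIs, under the minimum of 100. In macrophage or monocyte-like cells Abca1 stood at 0.41 (-0.03 to 0.86) and Abcg1 at -0.02 on 67 and 43 UMIs. Without doublet removal these were 0.37 and 0.13, and with thinning, on few UMIs, both were -1.12 with intervals that held 0. In neutrophil-like cells Abca1 stood at 0.39 (-0.22 to 1.00).

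The genes around the efflux pathway were described by lists, first in the 5 B states together, where the median log2 ratio of all 8715 genes was 0.00. Beside Apoe, Abca1 and Abcg1, 8 of the 11 other genes of the LXR list reached the minimum, with a median of 0.00 and none at least 2-fold apart. Nr1h2, the gene of LXRβ, stood at 64.4 CPM in the FMD library and 58.8 CPM in the ad libitum library, and Rxrb, the gene of a partner, at 34.7 and 36.3 CPM. Nr1h3, the gene of LXRα, had 2 and 0 UMIs in the 5 B states, against 13 and 11 UMIs in macrophage or monocyte-like cells (22.5 and 30.1 CPM). B cells of these libraries thus held the transcript of LXRβ with hardly any of LXRα. Mylip, an LXR target that encodes a ubiquitin ligase, stood at 22.4 and 28.4 CPM (-0.35, -0.56 to -0.13), and Srebf1 at 21.5 and 18.9 CPM.

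Of the other sterol and phospholipid transporters, 9 of 12 reached the minimum in the 5 B states, with a median log2 ratio of 0.12 and none at least 2-fold apart. Npc2, which carries cholesterol out of lysosomes, stood at 143.9 and 132.5 CPM, and Osbpl8, a lipid exchanger at membrane contacts, at 66.3 and 60.8 CPM. Of the receptors, 4 of 10 reached it, with a median of 0.11 and none apart. Sorl1, a sorting receptor that binds apolipoprotein E, stood at 203.4 and 215.8 CPM. Of the esterification and storage genes 7 of 8 reached it, with a median of -0.15; Plin2, a lipid droplet coat protein, was lower in the FMD library at 45 and 76 UMIs (-0.63, -1.20 to -0.08), short of 2-fold. Soat1, which esterifies cholesterol, stood at 32.4 and 29.5 CPM. Of the lipase partners 4 of 8 reached it with a median of 0.03, Sel1l among them at 35.5 and 25.1 CPM (0.50). The medians of these 5 lists thus ran from -0.15 to 0.12. Cd36, a fatty acid and lipoprotein scavenger receptor, stood higher in memory or B-1 B-like cells, at 30.4 CPM (38 UMIs) and 19.1 CPM (31 UMIs), than in follicular B-like cells, at 7.85 and 6.50 CPM.

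In named myeloid cells, where the median log2 ratio of all 3528 genes was 0.07, more of the pathway was measured at a high level but the classes are mixed and small, and their make-up differs between libraries as given above. At least 2-fold apart were 0 of 4 measured LXR genes beside the members, 0 of 3 transporters, 1 of 5 receptors, 1 of 4 esterification and storage genes and 0 of 3 lipase partners, both genes higher in the FMD library, beside 4.13% of all genes in either direction and 1.87% in that direction. Msr1, a macrophage scavenger receptor, stood at 69.3 CPM in the FMD library and 23.0 CPM in the ad libitum library (1.59, 0.96 to 2.27), and Nceh1, which hydrolyses cholesterol esters, at 73.7 and 29.8 CPM (1.31, 0.74 to 1.90). Fabp5, a fatty acid binding protein, stood at 548.8 and 335.5 CPM (0.71) and Smpdl3a, an LXR target, at 140.1 and 90.3 CPM (0.63, 0.29 to 0.99). Plin2 stood at 613.1 and 524.6 CPM and Npc2 at 839.1 and 646.4 CPM. Within macrophage or monocyte-like cells alone, Npc2 averaged 1444 and 1035 CPM, Msr1 166 and 73.9 CPM, Fabp5 886 and 411 CPM, and Trem2, a lipid receptor of tissue macrophages, 100.2 and 63.0 CPM. Npc2, Msr1, Fabp5 and Trem2 were higher there in the FMD library, as Apoe was with doublets removed. Nr1h3, given above on few UMIs, was lower there, and Abcg1 stood at 116 and 118 CPM. Most named genes were picked by distance between libraries or by level, so they are not a sample of the pathway. Of the 2 receptors that reached 100 UMIs in this class, 1 stood at a log2 ratio of -0.49 and 1 at 1.17. The median of all 1480 genes there was 0.13. Values of the named genes without doublet removal were not tested.

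Genes whose level followed that of Apoe most closely were listed by Pearson correlation of log2(CPM + 10) over cluster and library profiles, which share libraries, depth and clustering, so the values are descriptions. Over 18 B lineage profiles and 8093 genes they were Rnf125 (0.87), N4bp1 (0.80), Stat5a (0.77), Psmd9 (0.77), Ttc39b (0.77), Nbdy (0.76), Stat5b (0.74) and Mettl6 (0.74). Abca1 and Abcg1 stood at -0.28 each there. Leaving out the plasma-like profiles (16 profiles) put Unc119b (0.91), Stat5b (0.91), Sod2 (0.90) and Rnf125 (0.90) first, so the order rested in part on them. Over 49 profiles of all clusters and 9489 genes the nearest genes were Apobec1 (0.89), Dok3 (0.88), Pkig, Bcar3 and Blnk (0.87 each), Rasgrp3 (0.86), and Snx8 and Fcrla (0.85 each). Blnk encodes an adaptor of the B cell receptor and Fcrla a B cell Fc receptor-like protein. Abca1 stood at 0.59 and Abcg1 at -0.21 in that comparison, so neither transporter ranked among the genes nearest to Apoe.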

How the data were processed

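Each library holds CD45+ cells pooled from 4 mice, made with the 10x 3′ V3 kit per the labels' protocols. The authors deposited raw UMI counts per gene and barcode. Per the file headers and the submitters' processing notes, Cell Ranger 3.1.0 and GRCm38 were used, with Seurat 2.3.4 and CASAVA 1.8 also named. Barcodes with under 200 genes (441 FMD, 475 ad libitum), over 20% mitochondrial UMIs (694, 661) or marks of doublets (128, 91) were left out. Scrublet marked only 0.042% and 0.04% of cells and so did not work; doublets were called where 2 lineage panels (B, T, myeloid) each reached 5 UMIs and 0.5 per 1000. Cells were clustered with scanpy 1.11.5 and leidenalg 0.10.2 (2000 variable genes without the 4 genes described, 30 components, 15 neighbours, resolution 1), giving 28 clusters, 24 of them named from marker lists; macrophage and dendritic clusters were clustered again. The naming rules, that second step and the split by heavy chain (at least 3 UMIs, over 0.5 of them from 1 class) were chosen after clusters were seen. The members and lists were chosen with earlier results of these data known. UMIs were summed by class and library; ratios have exact intervals (scipy 1.17.1) at 95%, and a gene with at least 100 UMIs counts as apart at 2-fold. Limits for 0 UMIs use 3 counts. Depth per library is given above, and alternatives are given in the closing section. On counts simulated for 7692 genes in follicular B-like cells, 95.4% of intervals held the true ratio. These counts were drawn as Poisson, which the intervals assume, so this checked the calculation only. Spread between cells or mice was not simulated. Named were the 4 genes in classes of at least 20 cells per library, pathway genes with at least 100 UMIs in B lineage or myeloid cells that were 1.5-fold apart or among the 3 highest of their list, and the 8 genes most like Apoe. Cd36, Nr1h3, Srebf1, Soat1, Trem2 and the neighbours of Apoe were named beside this rule, after their values were seen. Of 30905 genes, 62 symbols stand on more than 1 line.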

Additional observations from a re-analysis of the deposited data

Results flagged for a closer look

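Apoe diverged between cell classes. Its log2 ratio of FMD over ad libitum was above 0, with the interval also above 0, in follicular B-like cells (0.0516), T-like cells (0.85), macrophage or monocyte-like cells (2.31) and plasma-like cells (3.24). It was below 0 in Egr-high B-like cells (-0.40), heat shock-high B-like cells (-0.23) and memory or B-1 B-like cells (-0.50). Abcg1 stood below 0 in follicular B-like cells (-0.29) and above 0 in germinal centre B-like cells (1.70) and T-like cells (0.24). Opposite directions between classes under the same contrast are what drew these out, and with 1 library per diet the differences between classes were not tested. The T-like value was 0.40 without 1 cluster, and the macrophage value turns without doublet removal. The follicular and heat shock-high values changed sign at resolutions 0.5 and 2. In plasma-like cells the 5 highest cells held 99.6% of FMD and 95.7% of ad libitum Apoe UMIs. Abcg1 in germinal centre B-like cells rests on 19 and 4 UMIs, and without the highest cells its interval held 0 (-0.07 to 4.18). All these intervals cover counting error only.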

How the results depend on the processing

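No paired analysis was possible because each diet has 1 library and the libraries share only 1 replicate number. For the same reason no library could be left out. Values are log2 ratios, FMD library before ad libitum library. At resolution 0.5 the Apoe diet ratio turned to -0.0588 in follicular and 0.16 in heat shock-high B-like cells. At resolution 2 these were -0.0646 and 0.0457, and memory or B-1 B-like cells moved to -0.33. Without doublet removal the macrophage or monocyte-like ratio turned to -0.60 and the follicular one moved to 0.28. Abca1 in Egr-high over follicular B-like cells of the ad libitum library turned to -0.0207 with the 4 genes kept in clustering and -0.21 with thinning, and its Egr-high diet ratio to 0.19 with thinning. Against follicular B-like cells Apoe moved as follows. At resolution 0.5 it was -0.91 in ad libitum Egr-high, -0.40 and -0.62 in heat shock-high, 1.51 in ad libitum memory or B-1 and 0.64 in ad libitum germinal centre B-like cells. At resolution 2 it was -1.02 in FMD Egr-high, -0.22 and -0.33 in heat shock-high, 0.82 and 1.09 in memory or B-1, and 0.98 and 0.98 in germinal centre B-like cells. With the 4 genes kept it was -1.53 and -0.97, -0.80 and -0.43, 1.29 and 1.81, and 0.81 and 0.95 in those 4 states. At 10% mitochondrial UMIs it was -1.09 and -0.57, -0.75 and -0.51, 0.85 and 1.53, and 0.76 and 1.00, and the follicular diet ratio was 0.15. Without doublet removal it was -0.94 and -0.37, -0.65 and -0.18, 1.96 in ad libitum memory or B-1, and 0.87 and 1.21. With thinning it was -0.99 in FMD Egr-high, -1.21 in FMD heat shock-high and 1.83 in ad libitum memory or B-1 B-like cells. Thinning moved diet ratios to -0.14 in Egr-high, -0.63 in memory or B-1 and -0.0511 in all 5 B states. The ratio of plasma-like cells without IgA was 1.75 without cells holding a macrophage UMI, 2.49 with all UMIs as the total, 2.13 with thinning and 3.25 without the highest cells, which put all plasma-like cells at 4.03. Shares of cells with Apoe were 50.4% and 46.3% in follicular and 76.8% and 87.4% in memory or B-1 B-like cells at 2000 UMIs, and 65.9% and 61.7%, and 88.7% and 94.3%, unthinned. With a minimum of 20 UMIs, 562 genes in plasma-like, 799 in macrophage or monocyte-like and 156 in B cells were 2-fold apart. Of the kept named cells, 64.5% to 86.1% had the same class under other clusterings. The cause of each move was not tested. Depth limits Lpl, and cell numbers limit plasma-like and myeloid classes.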

Other observations

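Clusters outside the named classes also carried Apoe. Cells led by Dab2, 17 in the FMD library and 28 in the ad libitum library, averaged 382 and 492 CPM, cells led by Gm26917 325 and 430 CPM, and cells led by Hbb-bs, a haemoglobin gene, 345 and 397 CPM. Of the 119 Apoe UMIs in FMD cells led by Dab2, 80 lay in 1 cell. Mast-like cells, a named class of 16 and 9 cells, averaged 303 and 541 CPM. There 1 cell held 27 of the 37 FMD Apoe UMIs, and the 2 highest ad libitum cells held 17 and 14 of 32. The median mast-like cell held 0 in both libraries. Genes of the B panel stood at 164 and 287 CPM in this class, and their part in its Apoe values was not tested. Cells led by Pgf, 65 and 39 in number, held 4 and 0 Apoe UMIs while Abcg1 stood at 60.7 and 62.2 CPM in them.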
